A study of Mus musculus with 12 samples.

Results

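The killer cell lectin-like receptors are the products of the mouse genes whose symbols run from Klra to Klrk. All 30 such genes among the 50600 gene IDs of the RNA-seq count files were taken as members by symbol alone, without a limit on their counts. They comprised 14 Klra genes, 6 Klrb genes, 3 Klrc genes, Klrd1, Klre1, 2 Klri genes, Klrk1 and 2 Klrg genes, and 4 of the 30 are annotated as pseudogenes. All 30 lie on chromosome 6, and 28 of them fall within 2.64 Mb between Klrb1a and Klra2 (mm10, chr6:128609227-131247362), the stretch known as the natural killer (NK) gene complex. Klrg1 (chr6:122270596-122282882) and Klrg2 (chr6:38625693-38637242) lie outside it.

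These receptors are C-type lectin-like proteins of the cell surface, found on NK cells and on innate-like and memory T cells. Inhibitory members carry a cytoplasmic motif that recruits phosphatases when a major histocompatibility complex (MHC) class I molecule or another ligand is bound, whereas activating members signal through adaptor proteins. Most thymocytes are immature T cells and are not known for these receptors, so that their transcripts in a whole thymus are usually sought in its few NK cells, innate-like T cells and, for some members, myeloid and dendritic cells. In mice, the number and identity of the Klra genes differ between inbred strains.

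RNA of 12 mice was sequenced, 3 per group, to compare lymphoma cells driven by the human fusion kinase NPM-ALK with thymocytes that did or did not have the DNA methyltransferase gene Dnmt1. Ctrl were thymocytes of mice with the genotype DNMT1 fl/fl, in which the gene is flanked by loxP sites but intact (25, 21 and 20 weeks old). KO were thymocytes of DNMT1 fl/fl CD4-CRE mice (20, 20 and 21 weeks), and ALKKO were thymocytes of NPM-ALK+, DNMT1 fl/fl CD4-CRE mice (25, 21 and 19 weeks). ALK were T cell lymphoma cells of NPM-ALK+ mice (24, 22 and 31 weeks), for which the label gives no loxP allele. All mice were male except KO2, which was female. Both the fusion kinase and the Cre recombinase are driven by Cd4 regulatory sequence, which is active in developing T cells, and the mice were on a mixed genetic background of C57Bl/6 and another inbred strain. ALK differs from the other groups in the kind of sample as well as in genotype, and these cannot be told apart.

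The libraries held 12473857 to 18864327 reads counted on genes. Dnmt1 measured 444, 487 and 399.6 CPM (counts scaled to a common library size) in Ctrl, 240.2, 206 and 243 in KO, 787, 622 and 378 in ALK and 205, 221 and 244 in ALKKO. Reads on mouse Alk, to which the human transgene can align, reached 34.8 to 54.9 CPM in ALK and ALKKO and stayed at or below 0.431 CPM elsewhere. Cd4 and Cd8a, which define most thymocytes, measured 577 to 2254 CPM in the thymus libraries, whereas Rag1 was listed at 0 in all 12 libraries. Whether Rag1 reads were left out of the counts was not tested, and this 0 is not read as absence of expression. The library KO2 stood apart: its summed B cell markers were 1996 CPM, where every other library had at most 95.7, its summed macrophage and granulocyte markers were 2743 CPM and its summed thymocyte markers 5811 CPM against 12810 to 17470 in the other thymus libraries. The 20 genes of the NK cell marker list include Tyrobp, Fcer1g and Fcgr3, which are not confined to NK cells. Their summed level reached 951 CPM in KO2, and the range in the other thymus libraries was 239 to 399. Values of the KO group are therefore given per mouse, and the part of these cells in any difference was not tested.

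Reads of the members were few. Together the 30 genes took 22 to 1240 counts per library, with a median of 503. Klrb1b had no read in any library and Klra11-ps a single one, and the other 28 reached at least 3 counts in a library. In CPM scaled by TMM (trimmed mean of M values), the summed level of the 30 genes was 54.3, 41.8 and 38.7 in the 3 Ctrl mice, 25.9, 107 and 18.4 in KO, 2.55, 1.92 and 7.8 in ALK and 35.9, 22 and 33 in ALKKO. All 3 lymphomas lay below every thymus, and KO2 lay above every other library. Without KO2 the KO mean was 22.2 CPM in place of 50.3.

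**Figure D1:**
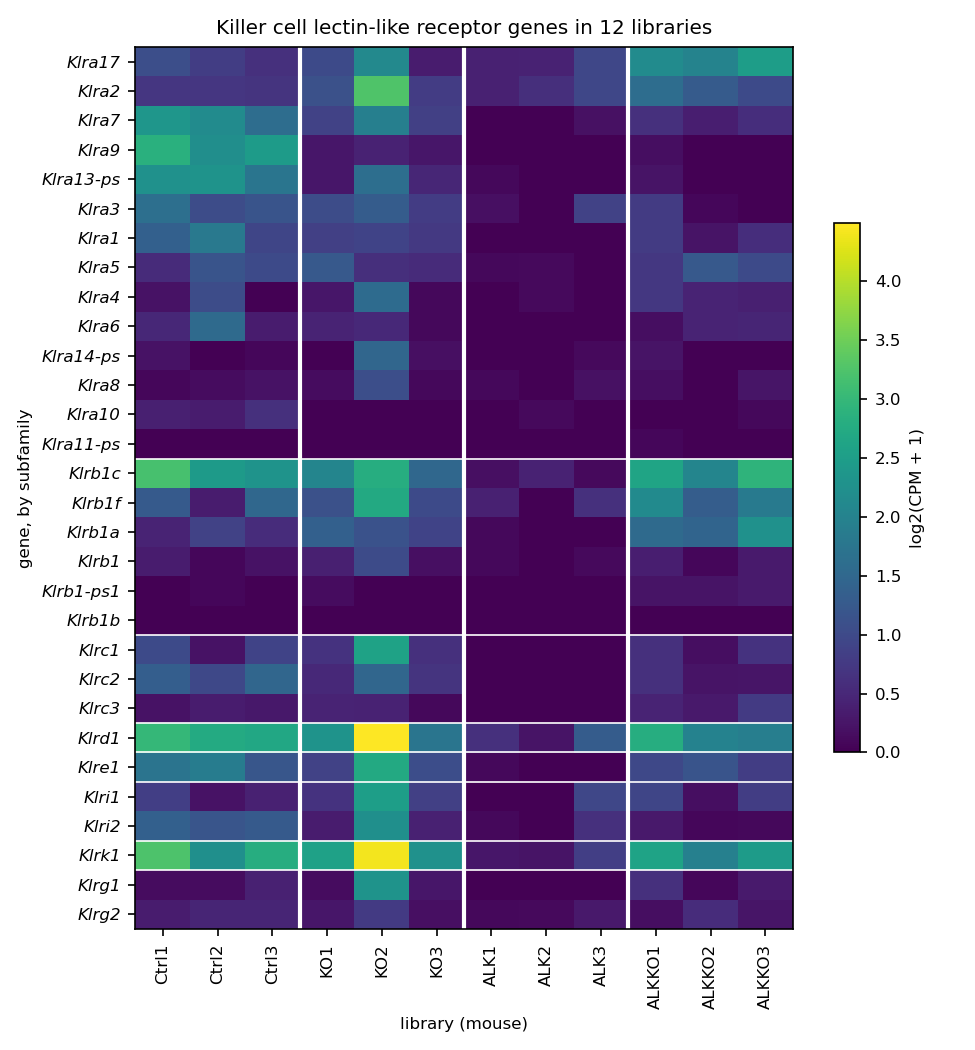
Level of the 30 killer cell lectin-like receptor genes, as log2(CPM + 1), in the 12 libraries (columns, 3 mice per group) with genes in rows by subfamily and, within a subfamily, by mean level. The 3 ALK columns are the darkest, KO2 is the brightest for Klrd1 and Klrk1, and Klra9 is bright in the 3 Ctrl columns only.

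On a scale per length, in CPM per kilobase of exon, the member with the highest mean level in Ctrl was Klrd1 (4.71 ± 0.61, mean ± SD, n = 3). Klra9 followed with 3.74 ± 1.01, Klra13-ps with 3.25 ± 0.842, Klra7 with 2.54 ± 0.839 and Klrb1c with 1.85 ± 0.763. Each of these neighbours in the order differed by less than the sum of their SDs. In ALKKO the order was another one: Klra17 came first with 3.13 ± 0.696 CPM per kilobase, Klrd1 second with 3.05 ± 1.37, then Klrb1c with 1.67 ± 0.588 and Klrb1a with 1.57 ± 0.725, while Klra9 measured 0.0315 ± 0.0546. Reads that fit several places in the genome are in no gene's count, so a member with a close copy elsewhere lost part of its reads. Of all windows of 50 bases, the read length, in the transcripts of a member, those found in no other gene made up 68.5% for Klra9, 61.4% for Klrc1 and 60.2% for Klra10, but 100% for Klrd1, Klrk1, Klra17 and Klra2. On this account levels of the genes with little sequence of their own are understated. The windows are those of the reference transcripts, and how reads of another strain's Klra copies were aligned and counted was not tested.

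Whether lymphoma cells and thymocytes differed in these receptors was asked first. With edgeR's quasi-likelihood test and Benjamini-Hochberg adjustment over the 16052 genes tested, genes with an adjusted p below 0.05 and an absolute log2 fold change above 1 were called. Of the 30 members 19 had enough counts to be tested and 12 of these were called lower in ALK than in Ctrl, where 12% of all genes tested were called lower. None was called higher (background 8.41%). A member low in every group could not be tested, so the 12 stand for the members with reads in thymus, not for all 30. The values of ALK and Ctrl did not overlap for 14 tested members, all lower in ALK (background 25.1%). The median log2 fold change of the 19 was -3.96, or -3.02 with the genes without any ALK read at their bound, and that of all genes was 0.05. In bulk RNA, fewer cells of a type and less RNA per cell cannot be told apart. The NK cell markers, which hold no Klr gene but include genes not confined to NK cells, moved in the same comparison. Of them 9 of 19 tested were called lower and none higher. Their summed level was 82.5 to 233 CPM in ALK and 272 to 311.9 in Ctrl. Of the innate-like T cell markers 7 of 12 were called lower (summed 161, 220.3 and 908 CPM in ALK, 993 to 1277 in Ctrl). The part of these cells in the lower Klr levels was not tested.

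Klra genes encode the Ly49 receptors, most of which inhibit on binding classical MHC class I. Klra9, the gene of the inhibitory receptor Ly49I, had 117, 68 and 84 counts in the 3 Ctrl mice and no count in any of the 3 lymphomas. In CPM the Ctrl levels were 6.18, 3.64 and 4.52, so that ALK was at least 20.6-fold lower by the floor of 3 counts per ALK library (adjusted p = 0.00117 with edgeR). Klra7 encodes the inhibitory Ly49G and measured 4.12, 3.48 and 2.05 CPM in Ctrl against 0, 0 and 0.156 in ALK. With 2 ALK counts in all, its pooled level was 63.1-fold lower in ALK, with a 95% counting interval of 17.2 to 525 (edgeR adjusted p = 0.00254). Klra1, the gene of the inhibitory Ly49A, measured 1.58, 2.52 and 0.915 CPM in Ctrl and had no ALK read, a fall of at least 7.2-fold (edgeR adjusted p = 0.0016). All 3 genes separated the groups without overlap. Klra9 and Klra13-ps, which is given next, also lay below every Ctrl mouse in KO and ALKKO. Which strain's Klra genes each mouse carried was not tested.

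The annotated pseudogene Klra13-ps measured 3.8, 3.96 and 2.37 CPM in Ctrl and had a single read in ALK, so that its pooled level was 133-fold lower (95% counting interval 23.5 to 5263, edgeR adjusted p = 0.00558). It shares 13.7% of its windows with Klra7, and reads of such windows are in neither count. Klra5, which encodes Ly49E, a receptor known from fetal NK cells and some T cells, measured 0.475, 1.23 and 1.02 CPM in Ctrl and 0.0671, 0.0871 and 0 in ALK (17.8-fold lower, 95% counting interval 4.68 to 151, edgeR adjusted p = 0.00631). Klra17 (Ly49Q, known from plasmacytoid dendritic and myeloid cells) measured 0.336, 0.348 and 0.936 CPM in ALK beside 1.11, 0.75 and 0.538 in Ctrl (log2 fold change -0.56 ± 0.79 with its SE, edgeR adjusted p = 0.623). Klra2 (Ly49B, likewise known from myeloid cells) measured 0.336, 0.522 and 0.936 CPM in ALK and 0.633, 0.643 and 0.592 in Ctrl, with a log2 fold change of -0.06 ± 0.86 and an adjusted p of 0.965 (edgeR). Both overlapped between the groups.

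Among the other Klra genes, Klra3 (inhibitory Ly49C) ranged from 1.07 to 2.11 CPM in Ctrl and from 0 to 0.859 in ALK (log2 fold change -2.12 ± 1.17, edgeR adjusted p = 0.193). Its ALK counts were 2, 0 and 11, so nearly all came from ALK3. Klra4 (activating Ly49D) was uneven within Ctrl, with 3, 20 and 0 counts, and had 1 count in ALK (edgeR adjusted p = 0.168). Klra6 had 8, 36 and 5 counts in Ctrl and none in ALK. Klra10 had 6, 5 and 10 counts in Ctrl and at most 1 in any other library. Klra8, the gene of the activating Ly49H that recognizes a cytomegalovirus protein, and Klra14-ps had at most 3 counts in every library but KO2, where they had 13 and 21. None of Klra6, Klra8, Klra10 and Klra14-ps had the counts to be tested.

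In the Klrb genes, which encode the NKR-P1 receptors, Klrb1c (NK1.1, an activating receptor and the usual NK cell marker of C57BL/6 mice) measured 8.08, 4.45 and 3.93 CPM in Ctrl and 0.134, 0.348 and 0.078 in ALK. Its log2 fold change was -4.85 ± 0.71 (edgeR adjusted p = 0.00127), or -5.59 without ALK2. Its exons overlap those of Gm44511 on the same strand, with which it shares 12.4% of its windows. Klrb1a (NKR-P1A) measured 0.369, 0.857 and 0.485 CPM in Ctrl and had a single read in ALK, 22.3-fold lower with a 95% counting interval of 3.73 to 909 (edgeR adjusted p = 0.00619). Klrb1f (NKR-P1F, a receptor of Clec2 proteins) ranged from 0.268 to 1.83 CPM in Ctrl and 0 to 0.546 in ALK and was not called (adjusted p = 0.183, edgeR). Klrb1 stayed at 5 counts or fewer in Ctrl and at 1 or fewer in ALK, and Klrb1-ps1 at 1 or fewer in both.

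CD94, the product of Klrd1, pairs with the NKG2 proteins encoded by the Klrc genes to bind the non-classical MHC molecule Qa-1. Klrd1 measured 6.92, 5.73 and 5.44 CPM in Ctrl and 0.537, 0.174 and 1.48 in ALK, a log2 fold change of -3.02 ± 0.92 (edgeR adjusted p = 0.0314). Among its partners, Klrc1 (inhibitory NKG2A) had 19, 3 and 16 counts in Ctrl and none in ALK, at least 2.91-fold lower (edgeR adjusted p = 0.0379). Klrc2 (activating NKG2C) had 29, 18 and 33 counts in Ctrl and none in ALK, at least 6.13-fold lower (edgeR adjusted p = 0.00321). Klrc1 and Klrc2 share 36.6% of the Klrc1 windows. Klrc3 had 3, 5 and 4 counts in Ctrl and none in ALK. No Klrc read was thus found in 3 lymphomas, and Klrd1 had 8, 2 and 19 counts. The call of Klrd1 was lost without Ctrl1, Ctrl2, Ctrl3, ALK1 or ALK2, with adjusted p-values from 0.0637 to 0.0847 (edgeR). That of Klrc1 was lost without Ctrl1, Ctrl3, any ALK mouse, ALKKO1 or ALKKO3, with adjusted p-values from 0.0527 to 0.0874, and with age as a covariate (0.0614, edgeR). Without ALK3, the oldest mouse, the log2 fold change of Klrd1 was -4.03.

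The product of Klre1 pairs with that of Klri1 into an inhibitory receptor and with that of Klri2 into an activating one. Klre1 measured 2.32, 2.68 and 1.29 CPM in Ctrl and had a single read in ALK, 82.3-fold lower with a 95% counting interval of 14.5 to 3279 (edgeR adjusted p = 0.00358). Neither partner was called. Klri1 measured 0.792, 0.161 and 0.323 CPM in Ctrl and 0, 0 and 0.936 in ALK, where all 12 counts came from ALK3 (log2 fold change -0.44 ± 1.39, edgeR adjusted p = 0.836). Klri2 measured 1.58, 1.28 and 1.4 CPM in Ctrl and 0.0671, 0 and 0.546 in ALK, without overlap but not called (log2 fold change -2.75 ± 1.21, edgeR adjusted p = 0.109).

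Klrk1 encodes NKG2D, an activating receptor for stress-induced MHC class I-like ligands. It measured 8.39, 3.69 and 5.98 CPM in Ctrl and 0.201, 0.174 and 0.78 in ALK, a log2 fold change of -3.94 ± 0.82 (edgeR adjusted p = 0.0063), or -4.95 without ALK3. Klrg1, a receptor of cadherins on mature NK and effector T cells, had 2, 2 and 6 counts in Ctrl and none in ALK. Klrg2 had 5, 7 and 7 counts in Ctrl and 1, 1 and 3 in ALK. Both Klrg genes were too low to be tested. Over all 30 members ALK3 held 100 counts, ALK1 38 and ALK2 22.

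**Figure D2:**
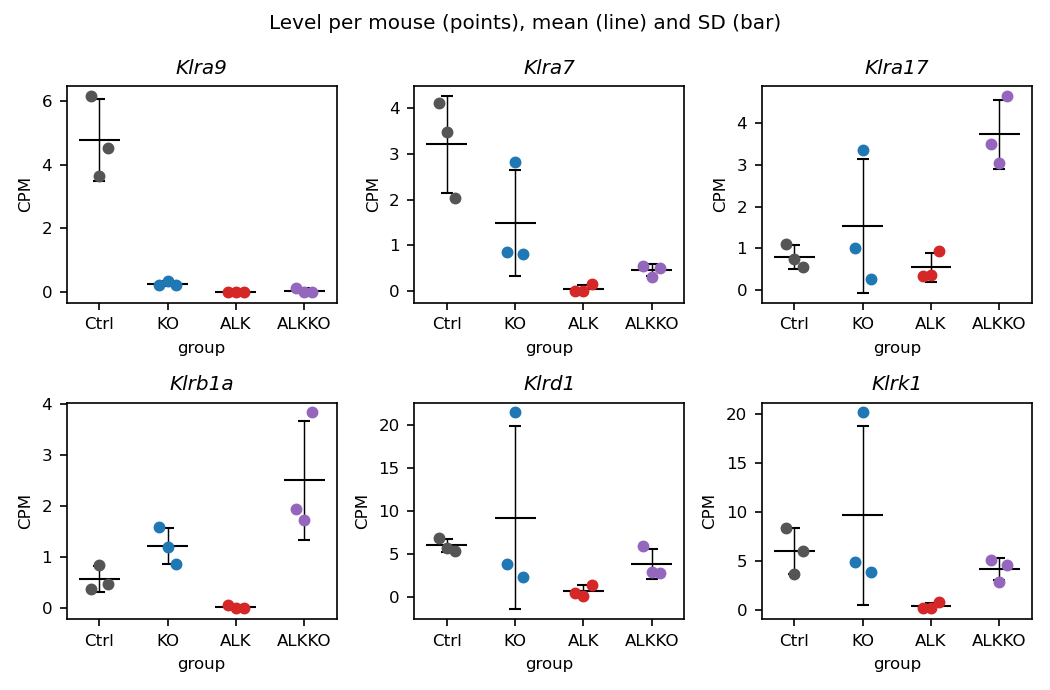
Level in CPM (linear axes) of 6 members in the 12 mice by group, with each point a mouse, the line the mean and the bar the SD (n = 3). Klra9 is high in the 3 Ctrl mice only, Klra17 and Klrb1a are highest in ALKKO, and the wide SD of KO for Klrd1 and Klrk1 comes from KO2.

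Deletion of Dnmt1 without the fusion kinase was then examined. None of the 19 tested members was called between KO and Ctrl with edgeR, where 0.0187% of all genes were called. At an unadjusted p below 0.05 there were 2 members (background 5.52%), and the DESeq2 Wald test called 1. That gene was Klra9, with 4, 4 and 3 counts in KO against 117, 68 and 84 in Ctrl. Its KO levels of 0.212, 0.344 and 0.202 CPM lay below every Ctrl level in all 3 KO mice, KO2 included. The log2 fold change was -4.22 ± 0.74 with an unadjusted p of 0.000359 and an adjusted p of 0.303 in edgeR, while DESeq2 gave an adjusted p of 1.69e-06. The call of Klra9 in KO thus depended on the tool. The other member below an unadjusted p of 0.05 was Klra2.

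The values of KO and Ctrl did not overlap for 3 tested members that were lower in KO (background 6.29%) and 2 that were higher (background 6.12%). Lower beside Klra9 were Klra1, with 0.794, 0.859 and 0.672 CPM in KO (log2 fold change -1.10 ± 0.58, edgeR adjusted p = 0.864), and Klra13-ps, with 0.212, 2.06 and 0.403 CPM (log2 fold change -1.95 ± 0.94, edgeR adjusted p = 0.864). Higher were Klrb1a, with 1.59, 1.2 and 0.874 CPM (log2 fold change 1.09 ± 0.58, edgeR adjusted p = 0.864), and Klra2, with 1.17, 8.59 and 0.74 CPM (log2 fold change 2.46 ± 0.85, edgeR adjusted p = 0.864). None of these 4 passed the test. The value of Klra2 rested on KO2: without it the log2 fold change was 0.61, as it was with sex as a covariate, KO2 being the only female. Of the members too low to be tested, Klra10 had no read in KO and 6, 5 and 10 in Ctrl.

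In most other members KO2 was the highest of the KO mice. Klrd1 measured 3.92, 21.5 and 2.35 CPM in KO and Klrk1 4.92, 20.2 and 3.83 CPM. In both genes KO1 and KO3 lay within or below the Ctrl range and KO2 above it. Klrc1 (0.582, 4.98 and 0.538 CPM), Klre1 (0.847, 5.58 and 1.08 CPM), Klri1 (0.582, 4.73 and 0.807 CPM) and Klri2 (0.265, 3.69 and 0.336 CPM) were likewise highest in KO2. Klrg1 had 2, 46 and 3 counts in KO. The defining NK cell genes Ncr1, which encodes the receptor NKp46, and Eomes, an NK cell transcription factor, were also highest there: Ncr1 measured 0.318, 9.19 and 0.403 CPM and Eomes 2.01, 19.3 and 1.95 CPM in KO. In Klra9, Klra1, Klra5 and Klrb1a, by contrast, KO2 lay within or near the range of KO1 and KO3, at 0.344, 0.859, 0.516 and 1.2 CPM. The part of KO2's other cell types or of its sex in these values was not tested.

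Thymocytes that carried the fusion kinase without Dnmt1 were compared with Ctrl next, a comparison that shares its 3 Ctrl libraries with the previous ones. With edgeR 1 member, Klra9, was called lower in ALKKO and none higher, where 0.00623% of all genes were called lower and 0.174% higher. Klra9 was the single gene called lower among all 16052. It had 2, 0 and 0 counts in ALKKO, and its pooled level was 117-fold lower than in Ctrl with a 95% counting interval of 32.1 to 973 (edgeR adjusted p = 0.0326). The call was lost on leaving out any Ctrl or ALKKO mouse, KO1 or KO3, when the adjusted p lay between 0.0854 and 0.2 (edgeR). Klra copies vary between strains, and which strain's NK gene complex each mouse carried was not tested. The part of strain in the low Klra9, Klra10 and Klra13-ps of KO, ALKKO and ALK is therefore not known.

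Between ALKKO and Ctrl 8 tested members were lower without overlap (background 7.56%) and 3 were higher (background 9.91%). Lower were, beside Klra9, the Ly49 genes Klra1, Klra3, Klra7 and Klra13-ps and the genes Klrc2, Klre1 and Klri2. Klra7 measured 0.544, 0.299 and 0.51 CPM in ALKKO (log2 fold change -2.81 ± 0.76, edgeR adjusted p = 0.541, called by DESeq2 with an adjusted p of 0.0143). Klra13-ps had 3, 0 and 0 counts in ALKKO, 55.2-fold lower with a 95% counting interval of 18.6 to 269.9 (edgeR adjusted p = 0.195, DESeq2 0.00371). These 3 Ly49 genes, Klra9, Klra7 and Klra13-ps, had the highest mean CPM of the Klra genes in Ctrl. Klra1 measured 0.726, 0.179 and 0.51 CPM (log2 fold change -1.81 ± 0.60) and Klra3 0.726, 0.0597 and 0 CPM (-2.45 ± 1.18). Klrc2 measured 0.544, 0.179 and 0.191 CPM (-2.19 ± 0.71), Klre1 0.967, 1.25 and 0.765 CPM (-1.07 ± 0.74) and Klri2 0.242, 0.0597 and 0.0638 CPM (-3.46 ± 1.25). None of these 5 was called, each with an edgeR adjusted p of 0.9998.

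The 3 members higher in ALKKO than in every Ctrl mouse were Klra17, Klra2 and Klrb1a, and none was called by edgeR or DESeq2 over all 12 libraries. Klra17 measured 3.51, 3.05 and 4.66 CPM in ALKKO and 1.11, 0.75 and 0.538 in Ctrl, a log2 fold change of 2.21 ± 0.77 with an unadjusted p of 0.0156. Klrb1a measured 1.94, 1.73 and 3.83 CPM in ALKKO and 0.369, 0.857 and 0.485 in Ctrl, a log2 fold change of 2.12 ± 0.58 with an unadjusted p of 0.00413 (adjusted 0.577 with edgeR). Klra2 measured 2.06, 1.43 and 1.02 CPM in ALKKO (1.26 ± 0.83). Klrb1-ps1, too low to be tested, had 3, 3 and 4 counts in ALKKO and at most 2 in any other library. The summed dendritic cell markers were 107, 73.5 and 102 CPM in ALKKO and 71.3, 49.5 and 66 in Ctrl, the summed macrophage and granulocyte markers 861, 822 and 883 and 650.2, 653 and 731, and the summed NK cell markers 399, 324 and 377 and 311.9, 272 and 281, all 3 sums higher in ALKKO without overlap. The defining NK cell genes differed in this: Ncr1 measured 0.907, 1.07 and 3.38 CPM in ALKKO and 0.211, 0.214 and 0.162 in Ctrl without overlap, whereas Eomes measured 2.24, 1.14 and 2.23 and 1.85, 0.643 and 1.45 and overlapped. Ccl5 and Nkg7, of the same marker list, overlapped too, with log2 fold changes of -0.29 ± 0.74 and -0.05 ± 1.12. None of these 4 genes was called, each with an edgeR adjusted p of 0.9998. The part of these cell types in the Klr levels was not tested.

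Klrd1, Klrk1, Klrb1c and Klra5 overlapped between ALKKO and Ctrl. Klrd1 measured 5.92, 2.99 and 2.81 CPM in ALKKO (log2 fold change -0.62 ± 0.83), Klrk1 5.08, 2.87 and 4.53 CPM (-0.53 ± 0.70) and Klrb1c 5.14, 3.11 and 6.57 CPM (-0.15 ± 0.56) in ALKKO. Klra5 measured 0.665, 1.37 and 1.02 CPM (0.16 ± 0.60). Against Ctrl, the KO and ALKKO values of Klra9 stood side by side at -4.22 ± 0.74 on the log2 scale for KO and at 2 reads in all for ALKKO, and those of Klrd1 at 0.61 ± 0.82 and -0.62 ± 0.83.

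The remaining members had few reads in the thymus libraries. Klra4 had 4, 23 and 1 counts in KO and 11, 6 and 5 in ALKKO, and Klra6 7, 5 and 1 and 2, 6 and 6. Klrb1f measured 1.17, 5.58 and 1.01 CPM in KO and 3.45, 1.49 and 2.55 in ALKKO, and its relative Klrb1 had 6, 12 and 2 and 5, 1 and 4 counts. All 4 overlapped with Ctrl in both groups. Of the partners of Klrd1, Klrc1 had 9, 2 and 9 counts in ALKKO, while Klrc3 had 7, 4 and 1 in KO and 6, 4 and 11 in ALKKO. Klri1 had 15, 2 and 12 counts in ALKKO, Klrg1 9, 1 and 4 and Klrg2 2, 8 and 3, with 4, 8 and 2 Klrg2 counts in KO. These members overlapped between ALKKO and Ctrl too, and Klra5 and Klrc2 between KO and Ctrl (1.38, 0.516 and 0.471 CPM and 0.424, 1.8 and 0.605 CPM in KO). Klra3, at 1.06, 1.46 and 0.74 CPM in KO, Klra7, at 0.847, 2.84 and 0.807 CPM, and Klrb1c, at 3.12, 5.93 and 1.81 CPM, overlapped with Ctrl as well.

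**Figure D3:**
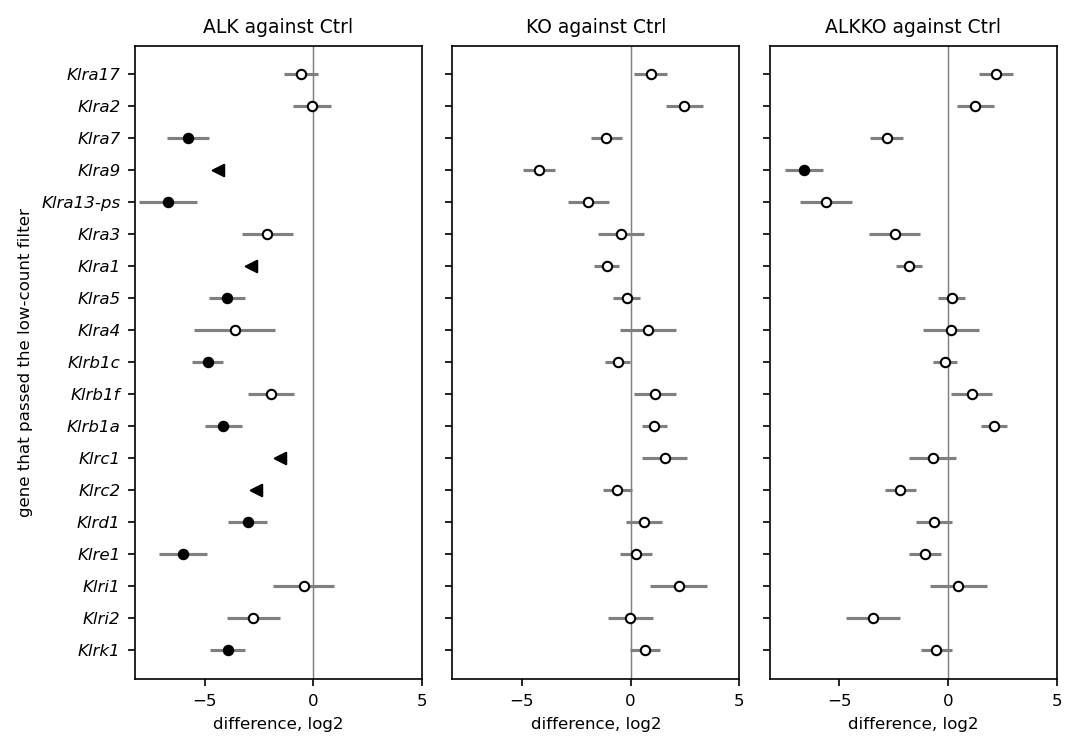
Log2 fold change against Ctrl (horizontal axis) of the 19 tested members (rows) in ALK, KO and ALKKO, with points at the edgeR estimate, bars its SE, and filled symbols for called genes. Triangles mark members without any read in ALK and stand at the lower bound of their fall, which runs from -4.36 for Klra9 to -1.54 for Klrc1.

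The makeup of the Ly49 reads within each library was read from the same counts. Of all Klra counts in a library, Klra9 took 29.2%, 17.6% and 31.7% in the 3 Ctrl mice, with exact 95% binomial intervals from 13.9% to 37.7% in all. In KO the share was 2.88%, 1.36% and 4.35%, with upper limits of 7.2%, 3.44% and 12.2%. In ALKKO it was 1.25%, 0% and 0%, with upper limits of 4.44%, 3.05% and 2.68%. The intervals of every KO and ALKKO mouse thus lay below those of every Ctrl mouse, KO2 included. Klra17 took the opposite place, with 5.25%, 3.63% and 3.77% in Ctrl and 36.2%, 42.9% and 53.7% in ALKKO. In KO it took 13.7%, 13.2% and 5.8%. Klra2 made up 3% to 4.15% of the Klra counts in Ctrl, 15.8%, 33.9% and 15.9% in KO, and 11.8% to 21.2% in ALKKO. The 3 lymphomas held 15, 13 and 40 Klra counts, too few for more than a rough makeup. These intervals cover counting error only, and the shares depend on one another, since a lower Klra9 raises the share of the rest.

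**Figure D4:**
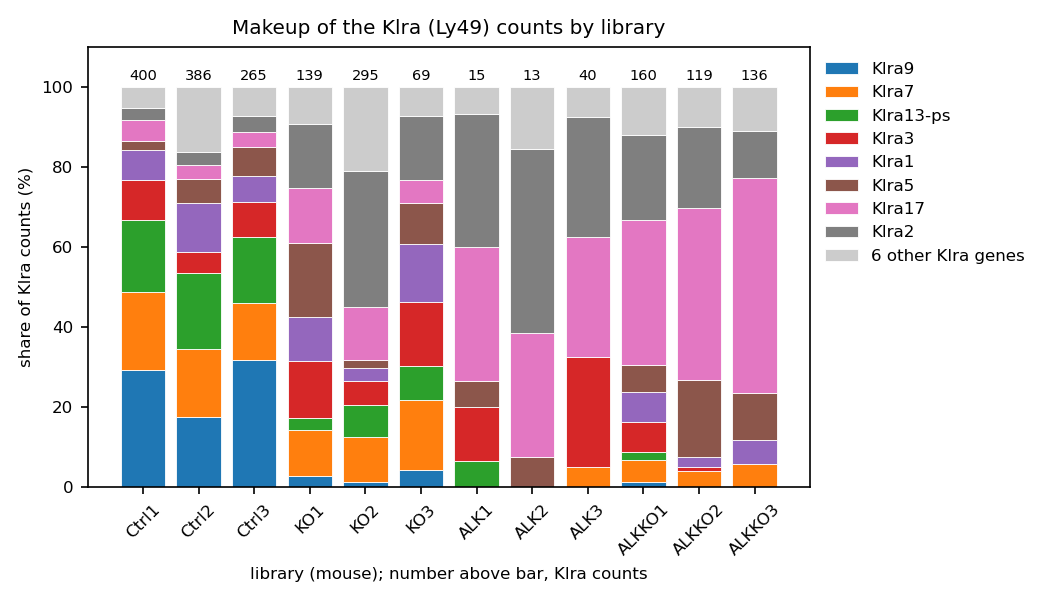
Share of all Klra counts (vertical axis, %) by gene in each of the 12 libraries, with the number of Klra counts above each bar. Klra9 takes 17.6% to 31.7% in Ctrl and at most 4.35% in any other library, and Klra17 takes 36.2% to 53.7% in the ALKKO libraries.

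The promoters of the members with opposite levels were compared, as the study deleted a methyltransferase of CG sites. Cre was driven by Cd4 sequence, and whether the cells with Klr transcripts had lost Dnmt1 was not tested. RefSeq (GRCm38.p6) gave a window from 250 bases before to 50 bases after the start for 23 of the 30 members. This start was not always that of the GENCODE gene used for the counts. The 2 lay 599 bases apart for Klrb1a, 574 for Klrb1c, 52 for Klra3 and 4426 for Klra5. All of the following are minus-strand genes and are shown 5′ to 3′ along the gene, with every CG in capitals. Klra9 and Klra3 are shown because Klra3 had the window most like that of Klra9, Klra17 and Klra7 because their ALKKO levels lay above and below those of Ctrl, and Klrb1a and Klrb1c as the most alike pair of Klrb windows.
Klra9 (chr6:130193063-130193362): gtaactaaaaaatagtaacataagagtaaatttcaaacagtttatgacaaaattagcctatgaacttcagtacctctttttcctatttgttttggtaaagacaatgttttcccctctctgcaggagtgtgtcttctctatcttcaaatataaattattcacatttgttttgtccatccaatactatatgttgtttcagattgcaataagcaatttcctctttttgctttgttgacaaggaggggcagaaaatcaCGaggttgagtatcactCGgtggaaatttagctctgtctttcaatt
Klra3 (chr6:130337577-130337876): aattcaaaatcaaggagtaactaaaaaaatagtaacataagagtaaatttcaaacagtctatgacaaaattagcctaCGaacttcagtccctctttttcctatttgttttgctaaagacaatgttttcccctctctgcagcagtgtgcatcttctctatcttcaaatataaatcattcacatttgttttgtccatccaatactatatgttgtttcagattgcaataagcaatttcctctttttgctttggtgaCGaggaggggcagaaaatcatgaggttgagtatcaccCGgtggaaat
Klra17 (chr6:129876623-129876922): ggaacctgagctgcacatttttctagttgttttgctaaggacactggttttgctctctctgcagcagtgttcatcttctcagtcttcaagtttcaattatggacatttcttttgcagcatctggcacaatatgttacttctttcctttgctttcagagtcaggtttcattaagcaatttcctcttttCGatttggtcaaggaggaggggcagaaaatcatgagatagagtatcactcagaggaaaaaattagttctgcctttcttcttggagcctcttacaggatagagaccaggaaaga
Klra7 (chr6:130233273-130233572): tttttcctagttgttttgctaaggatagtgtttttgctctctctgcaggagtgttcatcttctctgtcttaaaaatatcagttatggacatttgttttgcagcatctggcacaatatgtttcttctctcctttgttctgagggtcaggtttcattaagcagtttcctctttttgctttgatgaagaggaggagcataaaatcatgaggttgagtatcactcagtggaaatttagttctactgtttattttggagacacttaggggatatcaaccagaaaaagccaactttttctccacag
Klrb1a (chr6:128622885-128623184): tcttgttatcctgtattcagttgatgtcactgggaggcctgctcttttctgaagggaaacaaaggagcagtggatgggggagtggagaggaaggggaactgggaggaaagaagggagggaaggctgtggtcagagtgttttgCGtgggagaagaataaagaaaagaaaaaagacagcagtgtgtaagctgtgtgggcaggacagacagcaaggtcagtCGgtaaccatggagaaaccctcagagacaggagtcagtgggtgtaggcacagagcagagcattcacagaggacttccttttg
Klrb1c (chr6:128788592-128788891): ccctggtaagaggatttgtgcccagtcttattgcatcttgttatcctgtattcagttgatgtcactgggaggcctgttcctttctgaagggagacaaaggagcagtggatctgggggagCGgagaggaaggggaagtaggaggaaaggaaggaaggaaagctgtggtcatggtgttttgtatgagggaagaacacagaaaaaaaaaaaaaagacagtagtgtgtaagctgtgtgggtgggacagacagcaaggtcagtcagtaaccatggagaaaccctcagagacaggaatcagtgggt

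Windows were aligned end to end, and identity was taken over the whole alignment with gaps counted. The Klra9 window was 85% identical to that of Klra3 (271 of 319 positions). It was 50.3% to 62.1% identical to those of the other Klra genes, Klra17 among them with 54.4% (197 of 362). Alike stretches at different places in their windows add gaps and lower this value. A low value is therefore not read as a lack of shared sequence. The Klra17 window was 75.3% identical to that of Klra7, and the Klrb1a window 69.4% to that of Klrb1c. CG sites were few in all of them. The 23 windows of members held 0 to 12 CG with a median of 2, and 21 of 23 held at least 1, while 94.6% of all 32817 RefSeq windows of the same length did, with a median of 7. The Klra9 window held 2 CG, that of Klra3 3, that of Klra17 1 and that of Klra7 none. Motifs were searched on both strands by their letters: TGTGGT, bound by RUNX factors, was in 8 of 23 windows (16.8% of all RefSeq windows), GTGTGA, bound by T-box factors such as the product of Eomes, in 3 of 23 (14.5%), TGANTCA, bound by AP-1, in 4 of 23 (7.81%) and TATAAA in 8 of 23 (13.6%). Klra9 and Klra3 each held TATAAA and none of the other 3, Klra17 and Klra7 held none of the 4, and Klrb1a and Klrb1c each held TGTGGT. These matches describe letters and not binding.

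The remaining pair of comparisons set ALKKO against KO and against ALK. Between ALKKO and KO no tested member was called by edgeR (background 0.00623%), with 4 at an unadjusted p below 0.05 (background 2.69%). Values did not overlap for 5 members lower in ALKKO (background 2.24%), namely Klra3, Klra7, Klra9, Klra13-ps and Klri2, and for Klrb1a, which was higher (background 4.12%). For the 5 lower members the gaps rested on few reads. In that order, ALKKO1, the highest of its group, had 12, 9, 2, 3 and 4 counts. The KO mouse nearest to it had 11, 12, 3, 4 and 5. The log2 fold change of Klra7 was -1.70, and -0.87 without KO2. Klri2 measured 0.242, 0.0597 and 0.0638 CPM in ALKKO and 0.265, 3.69 and 0.336 in KO (log2 fold change -3.44 ± 1.26, unadjusted p = 0.0204 in edgeR). Without KO2 the log2 fold change of Klri2 was -1.24, and with sex as a covariate it was the same to 2 decimals. Klrb1a measured 1.94, 1.73 and 3.83 CPM in ALKKO and 1.59, 1.2 and 0.874 in KO (log2 fold change 1.02 ± 0.56, unadjusted p = 0.0959 in edgeR).

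Between ALK and ALKKO 8 tested members were called lower in ALK (background 12.6%) and none higher (background 7.03%), and 14 were lower without overlap (background 23.7%). Without KO2, which enters this comparison through the shared estimate of the spread only, 12 were called, and the count between ALK and Ctrl was 13. Klrb1a had the lowest adjusted p, with 32, 29 and 60 counts in ALKKO and 1 in ALK, a pooled level 96.9-fold lower with a 95% counting interval of 17.1 to 3858 (edgeR adjusted p = 0.000986). Klrb1c had a log2 fold change of -4.70 ± 0.70 (edgeR adjusted p = 0.00155) and Klrk1 one of -3.41 ± 0.81 (0.0118). Klra17 was called in this comparison, with a log2 fold change of -2.77 ± 0.80 (edgeR adjusted p = 0.0276). Without ALK2 the value of Klrb1c was -5.44, and without ALK3 those of Klrk1 and Klra17 were -4.41 and -3.43. The call of Klra17 was lost without ALK1, ALK2, ALKKO1 or ALKKO3, with adjusted p-values from 0.0572 to 0.0857 (edgeR).

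The other 4 were Klra1, Klra5, Klrc2 and Klre1. Klra1 and Klrc2 had no read in ALK and were at least 2.03-fold and at least 1.31-fold lower (edgeR adjusted p = 0.00633 and 0.02). The call of Klrc2 was lost without ALKKO1 (edgeR adjusted p = 0.0523). Klra5 was 20-fold lower with a 95% counting interval of 5.26 to 169.8 (edgeR adjusted p = 0.00557), and Klre1 39.2-fold lower with one of 6.72 to 1581 (0.00975). Klrd1 had a log2 fold change of -2.40 ± 0.90 and was not called (edgeR adjusted p = 0.07). Klra9 and Klra13-ps were at or under 3 counts in every library of both groups, so no fold is given.

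Ligands, adaptors and transcription factors of these receptors gave the setting. No gene of these lists was called between KO and Ctrl, between ALKKO and Ctrl or between ALKKO and KO (edgeR, the backgrounds above). Of 12 tested ligand genes 4 were called lower in ALK than in Ctrl (background 12%) and none higher, led by the cadherin gene Cdh4 with 33.1, 30 and 29.9 CPM in Ctrl and 0.0671, 0.435 and 0.312 in ALK (log2 fold change -6.84 ± 0.85, edgeR adjusted p = 0.000628). Clec2d, whose product is bound by the inhibitory NKR-P1B, was another, with 90.8, 86.3 and 82 CPM in Ctrl and 5.84, 6.53 and 9.76 in ALK. Of 21 adaptor and signalling genes 4 were called lower, a share not far from the 12% of all genes, most of all Cd247, the CD3 zeta chain (688, 677 and 559 CPM in Ctrl, 176, 189.9 and 169 in ALK, log2 fold change -1.85 ± 0.27, edgeR adjusted p = 0.00123). Of 16 transcription factors 5 were called lower, most of all Zbtb16, the PLZF factor of innate-like T cells (18.8, 12 and 4.9 CPM in Ctrl, 0.805, 0.174 and 0.546 in ALK, log2 fold change -4.50 ± 0.97, edgeR adjusted p = 0.00751). Against ALKKO the counts lower in ALK were 5 of 12 ligands, 5 of 21 adaptors and 4 of 16 factors (background 12.6%).

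Markers of the cell types a thymus holds were counted in the same way, with the same 12% of all genes called lower in ALK against Ctrl and 12.6% in ALK against ALKKO. In ALK against Ctrl the NK cell marker with the largest fall among those called was Ccl5, a chemokine gene of cytotoxic cells (37.6, 24.3 and 40 CPM in Ctrl, 0.604, 0.435 and 1.64 in ALK). Among innate-like T cell markers it was Tcrg-C1, a constant region of the T cell receptor gamma chain (32.6, 43.6 and 28.8 CPM in Ctrl, 0.0671, 0 and 0.078 in ALK). Of the thymocyte markers 6 of 13 tested were called lower, Cd8b1 most (1533, 1691 and 1345 CPM in Ctrl, 21.7, 7.23 and 28.7 in ALK). Of the B cell markers 1 of 6 was called lower, which was Cd79b, of the dendritic cell markers 3 of 6, Xcr1 most, and of the macrophage and granulocyte markers none of 9. In ALK against ALKKO the NK cell list again had 9 of 19 lower, Ncr1 most (edgeR adjusted p = 0.0288), the innate-like list 7 of 12, and the thymocyte list 6 of 13 lower and 1 higher, Ptcra, whose ALK and ALKKO values overlapped. The dendritic cell list had 4 of 6 lower, the B cell list 1 of 6 and the macrophage and granulocyte list 1 of 9, S100a8, so that the counts of the last 2 lists, 1 gene each, were near the background. The levels of the B cell markers were low in ALK all the same. Their median log2 fold change was -3.86 against Ctrl and -3.745 against ALKKO. Their summed level was 10.9, 6.45 and 23.8 CPM in ALK, 56 to 95.7 in Ctrl and 53.9 to 95.2 in ALKKO. No marker was called in the other 3 comparisons by edgeR.

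Genes that lie between the members were read beside them. Of 93 annotated neighbours within the NK gene complex 16 were tested, and 6 were called lower and none higher in ALK against Ctrl (background 12% lower), with a median log2 fold change of -1.98 over the 16. Cd69, an early activation marker of lymphocytes, fell most, from 84.6, 76.9 and 61.6 CPM in Ctrl to 2.55, 1.39 and 4.92 in ALK (log2 fold change -4.64 ± 0.39, edgeR adjusted p = 8.26e-05). Against ALKKO 9 of the 16 were called lower in ALK. No neighbour was called in the other comparisons, ALKKO against Ctrl included, in which Cd69 measured 95.8, 81 and 71.6 CPM.

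Levels of the members were finally set beside those of the NK cell markers. In the 3 ALKKO libraries the summed Klr level was 22.0 to 35.9 CPM with summed NK cell markers of 324 to 399 CPM, and in the 3 Ctrl libraries 38.7 to 54.3 CPM with 272 to 311.9 CPM. The Klr sum was thus lower and the NK cell marker sum higher in every ALKKO library than in every Ctrl library. Within the marker list Ncr1 was higher in ALKKO without overlap, whereas Eomes, Ccl5 and Nkg7 overlapped. In Ctrl Ncr1, Eomes, Ccl5 and Nkg7 averaged 0.196, 1.315, 33.95 and 16.87 CPM, beside 288 CPM for the whole list. Most of the sum thus came from other genes of the list, some of them not confined to NK cells. The marker sum is therefore not read as a number of NK cells. Per 100 counts of Klrd1 in the same library, Klra9 had 89.3, 63.6 and 83.2 counts in Ctrl, 5.41, 1.6 and 8.57 in KO and 2.04, 0 and 0 in ALKKO. Klrb1a had 5.34, 15 and 8.91 in Ctrl, 40.5, 5.6 and 37.1 in KO and 32.7, 58 and 136 in ALKKO. KO1 and KO3 thus lay above ALKKO1 in Klrb1a. Klra17 had 16, 13.1 and 9.9 in Ctrl, 25.7, 15.6 and 11.4 in KO and 59.2, 102 and 166 in ALKKO. Klrk1, in contrast, overlapped, with 121, 64.5 and 110 in Ctrl and 85.7, 96 and 161 in ALKKO. Nkg7, a gene of cytotoxic granules, was not lower in every lymphoma: it measured 0.201, 30.6 and 24.7 CPM in ALK and 17.5, 16.7 and 16.4 in Ctrl, and Ncr1 had a single read in ALK.

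**Figure D5:**
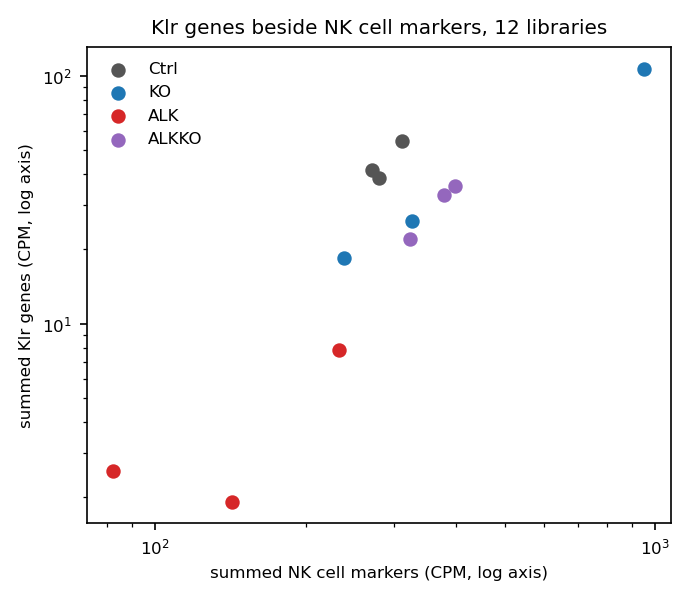
Summed level of the 30 Klr genes (vertical) against the summed level of the NK cell markers (horizontal), both in CPM on log axes, with 1 point per library colored by group. The 3 ALK libraries lie lowest on both axes, KO2 lies highest, and the ALKKO points lie below the Ctrl points at higher marker levels.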

How the data were processed

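Each of the 12 deposited tables holds, for 1 mouse, the raw count of reads per gene. The authors isolated RNA, prepared stranded poly(A) libraries, sequenced single ends of 50 nt, trimmed the reads with Trim Galore, aligned them to mm10 with STAR and counted them with HTSeq. The versions of these tools, the annotation release and the strand setting are not given in the sources used here. Reads that aligned to several places were left out of the counts and amounted to 39.2% to 51.8% of the reads listed per library, and reads that fitted several genes to 1.38% to 2.83%. Groups, replicate numbers, ages and sex were taken from the labels.

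Symbols and positions were matched for 50376 of 50600 gene IDs through GENCODE M21 (GRCm38). Lines that name no gene were left out of library sizes. In R 4.3.3 with edgeR 4.0.16, counts were scaled by TMM (factors 0.913 to 1.06), filtered with filterByExpr (16052 of 28141 genes with a read) and tested with glmQLFit (robust) and glmQLFTest, with 1 term per group over 12 libraries and Benjamini-Hochberg adjustment. The common biological coefficient of variation was 0.436. This test returns no SE, so the SE given with a log2 fold change was computed back from the test. It is the absolute log2 fold change divided by the square root of the F statistic. The fit was also run on counts simulated with its own estimates of spread, so that run does not check those estimates. CPM is relative to TMM-scaled library sizes. A fold against a group without any read was computed against 3 counts per library. On the TMM scale these were 0.201, 0.261 and 0.234 CPM in ALK1, ALK2 and ALK3. Where 1 group had at most 3 counts per library, the ratio of pooled counts is given with its exact counting interval. Intervals and floors cover counting error only, as reads carried no molecular identifiers. With 3 mice against 3 an exact permutation test of a single gene cannot go below p = 0.1, so none is quoted. Whether the mice of a group were littermates is not stated, and p-values measure the spread between these mice. All libraries of a group differed beyond sampling noise, with chi-square values of 13.5 to 207 per degree of freedom. Across 5 comparisons 20 alternatives were run, including DESeq2 1.42.0, no filter, a replicate block, sex, age and leaving out each mouse.

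The members and gene lists were chosen with earlier results of these data known. Every member with at least 3 counts in a library is described, with each mouse's value for those called or highest in their subfamily. Of the other lists, the called gene with the largest rise and fall, Ncr1, Eomes, Nkg7, Cd4, Cd8a, Rag1, Dnmt1 and Alk are named. Clec2d and the ratios to Klrd1 were chosen after their values were seen.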

Additional observations from a re-analysis of the deposited data

How the results depend on the processing

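Of 21 pairs of a member and a comparison that were called, 16 were called in every alternative that gave a value, and none of the 34 pairs followed changed direction. The exceptions were Klrd1 and Klrc1 in ALK against Ctrl, Klrc2 and Klra17 in ALK against ALKKO and Klra9 in ALKKO against Ctrl. The number of members called in KO against Ctrl was 1 with the DESeq2 Wald test in place of 0. In ALKKO against Ctrl it was 3 with DESeq2, 5 when those groups alone were fitted, 0 with a replicate block, 0 with age as a covariate, and from 0 to 1 on leaving out single mice, in place of 1. Members called by edgeR with those groups alone, but not by edgeR over 12 libraries, were Klra7, Klra13-ps, Klri2 and Klra17 (adjusted p 0.0347, 0.0289, 0.0434 and 0.0497). Of these, Klra7 and Klra13-ps were also called by DESeq2 over 12 libraries. Without the low-count filter Klrc3 and Klra6 were also called lower in ALK than in Ctrl (adjusted p 0.0356 and 0.0144), and Klrc3 in ALK against ALKKO (0.0135). Mice of the same number were not known to be related, and the deviations of same-numbered libraries correlated from -0.143 to 0.445, not above 0.1 in every pair of any comparison, so the numbers were not read as pairs. The replicate block also took away the calls of Klrd1 (adjusted p = 0.0653), Klrc1 (0.0803) and Klra17 (0.0512), and age as a covariate that of Klrc1 (0.0614). Where at least 10 counts in every library were required no member was left to be tested, so this alternative gave no value. The cause of these changes was not tested, except that fewer mice enter the fits without one. At 12473857 to 18864327 counts per library, 3 counts stood for 0.159 CPM in the deepest library and 0.241 CPM in the shallowest before TMM scaling. A member below 3 counts in a library cannot be told from none.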

Other observations

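Gm156, which RefSeq names Klrh1 and which the choice by symbol did not take in, had 2, 2 and 2 counts in Ctrl, 1, 0 and 1 in KO, none in ALK and 3, 3 and 3 in ALKKO. Gm44511, which overlaps Klrb1c and Klrb1b on the same strand, measured 1, 1.77 and 0.7 CPM in Ctrl, 2.49, 0.43 and 0.605 in KO, 0.537, 0.435 and 0.702 in ALK and 3.33, 2.93 and 6.06 in ALKKO, where it lay above every Ctrl mouse as Klrb1a did.

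Trdc, the constant region of the T cell receptor delta chain, separated the lymphomas: it measured 7.98, 10.6 and 203 CPM in ALK and 154, 204 and 124 in Ctrl, so that ALK3, which held most of the remaining Klr reads, was at the Ctrl level. Clec2i, a neighbour in the NK gene complex and ligand of NKR-P1 receptors, showed the same order, with 0.805, 0.435 and 67.9 CPM in ALK and 75, 51.4 and 69.2 in Ctrl. Both genes were picked after their values were seen.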
